A study of Mus musculus with 8 samples.

Results

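A set of 10 imprinted genes that take part in growth control was followed in mesenchymal stem/progenitor cells (MSPCs) of mouse bone marrow. They were chosen by symbol from the 52636 genes of the deposited count table, and all 10 have a row there: Igf2, H19, Meg3, Dlk1, Peg3, Mest, Grb10, Plagl1, Ndn and Zim1. MSPCs are stromal cells that make the cytokines SCF and CXCL12, on which hematopoietic stem cells depend. The study asked how these niche cells differ when hematopoietic progenitors lack the CXCL12 receptor CXCR4.

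Poly-A RNA of 8 sorted MSPC samples was sequenced, 4 from CTR mice (Flk2-cre+ Cxcr4fl/+) and 4 from cKO mice (Flk2-cre+ Cxcr4fl/fl), all on a C57BL/6 background. Flk2-cre recombines in multipotent hematopoietic progenitors, so that the deletion affects blood cells and not the MSPCs that were sequenced, and CTR mice carry the Cre and 1 floxed allele as well. According to the methods all of these mice carry GFP in the Kitl (SCF) locus, and the sort gate took cells that carried PDGFRα and SCF-GFP and lacked CD45, Ter119, CD31 and CD144. The labels give an age of 6 weeks for every mouse. Total counts were 31047344 to 38216877 per library, so that a limit of 3 counts corresponds to 0.0785 to 0.0966 CPM (counts of a gene for every 1000000 counts of the library) for counting error alone. The libraries fall into 2 sets by a number in their titles whose meaning the labels do not give: 26 to 32 (CTR2, CTR4, cKO2 and cKO4) and 67 to 86 (CTR1, CTR3, cKO1 and cKO3). The MSPC markers searched for were present, 6 of 6 above 1 CPM, with a summed level of 46778 to 57217 CPM in CTR and 46852 to 58181 CPM in cKO. Of 8 hematopoietic markers 2 exceeded 1 CPM on average, Cd3e was at 0, and the sum of the list was 0.854 to 8.98 CPM in CTR and 2.50 to 15.2 CPM in cKO. Of 6 erythroid markers, all above 1 CPM, the sum was 59.7 to 166 CPM in CTR and 122 to 236 CPM in cKO, and the plasma cell gene Igha, at most 1.16 CPM in the other libraries, reached 91.2 CPM in CTR3. In bulk samples such as these, fewer cells of a type and less RNA per cell cannot be told apart.

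Imprinted genes are expressed mainly or only from the allele inherited from 1 parent, and they lie in clusters whose methylation is set in the germ line. Many of those expressed from the paternal allele promote fetal growth and many of those expressed from the maternal allele restrain it. After birth several are turned down as organs stop growing, and some stay on in adult stem cells. Of the 10 genes, 6 are paternally expressed (Igf2, Dlk1, Peg3, Mest, Plagl1 and Ndn) and 4 are known for maternal expression (H19, Meg3, Zim1 and, in most tissues outside neurons, Grb10). Counts per gene do not separate the parental alleles, so that nothing here measures imprinting itself.

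Some of these genes host or neighbor small regulatory RNAs, and their mature sequences from RefSeq (GRCm38.p6) are shown because they are the other products of the loci measured here, with the seed (bases 2 to 8) in capitals.
H19, miR-675-5p: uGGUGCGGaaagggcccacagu
Mest, miR-335-5p: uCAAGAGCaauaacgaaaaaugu
Igf2, miR-483-3p: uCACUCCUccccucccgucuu
Meg3, miR-770-5p: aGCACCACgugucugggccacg
The 4 seeds differ from each other. Libraries made from poly-A RNA do not measure mature miRNAs, and the table rows of their genes held 0 to 1 counts for Mir675 and 0 counts for Mir335, Mir483 and Mir770 in each library.

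The promoters of Grb10 and Plagl1, which had the highest levels, and of Zim1 and Dlk1, which were near the limit of detection, are shown to set their CpG content beside those levels, as the 250 bases before the start of transcription in RefSeq (GRCm38.p6), 5′ to 3′ on the gene's strand, with CpG dinucleotides in capitals.
Grb10 (chr11:12037421-12037670, minus strand): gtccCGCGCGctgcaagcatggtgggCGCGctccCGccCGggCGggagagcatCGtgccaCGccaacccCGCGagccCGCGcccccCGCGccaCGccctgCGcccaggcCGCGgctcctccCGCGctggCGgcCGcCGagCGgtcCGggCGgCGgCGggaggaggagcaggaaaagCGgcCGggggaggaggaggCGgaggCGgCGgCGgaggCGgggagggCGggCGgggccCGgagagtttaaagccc
Plagl1 (chr10:13090582-13090831, plus strand): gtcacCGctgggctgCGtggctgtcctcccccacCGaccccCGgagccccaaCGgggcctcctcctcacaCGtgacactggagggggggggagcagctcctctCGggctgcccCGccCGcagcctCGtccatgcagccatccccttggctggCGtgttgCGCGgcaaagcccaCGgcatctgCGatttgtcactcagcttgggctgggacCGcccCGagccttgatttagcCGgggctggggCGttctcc
Zim1 (chr7:6696433-6696682, minus strand): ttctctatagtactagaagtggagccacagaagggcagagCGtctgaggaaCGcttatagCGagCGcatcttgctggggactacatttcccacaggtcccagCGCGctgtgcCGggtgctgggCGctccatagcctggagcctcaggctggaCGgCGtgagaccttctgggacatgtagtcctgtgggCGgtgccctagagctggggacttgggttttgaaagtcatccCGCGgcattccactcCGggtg
Dlk1 (chr12:109452573-109452822, plus strand): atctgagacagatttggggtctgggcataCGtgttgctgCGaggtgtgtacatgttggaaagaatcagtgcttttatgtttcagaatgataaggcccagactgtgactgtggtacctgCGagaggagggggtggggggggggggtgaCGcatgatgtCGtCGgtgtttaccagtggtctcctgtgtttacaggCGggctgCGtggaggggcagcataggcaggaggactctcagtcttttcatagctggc
These stretches hold 40 CpG in Grb10, 19 in Plagl1, 14 in Zim1 and 8 in Dlk1. Grb10 has a second RefSeq start, whose window (chr11:12027922-12028221, minus strand) holds 9 CpG, as many as the window of Dlk1, and which start is used in MSPCs was not measured. RefSeq windows of 300 bases (250 before the start and 50 after) were found for 9 of the 10 genes, 16 windows in all. The most CpG-rich window of each gene held 45 CpG in Grb10, 26 in Plagl1, 24 in Igf2, 20 in Zim1, 17 in Mest, 13 in Peg3 and in Meg3, 11 in Ndn and 9 in Dlk1. The least CpG-rich windows of the genes with several held 9 in Grb10, 8 in Mest, 2 in Igf2 and 1 in Meg3, and the median over all 32851 windows, taken singly, was 7. TGCCGC, the core of the motif bound by ZFP57, a zinc finger protein that protects imprinted methylation, was searched for on both strands. It was in 7 of the 16 windows, 2 of which are overlapping Mest windows, and in 11.61% of all windows. The motif itself holds a CpG, and the 7 windows with it held 13 to 45 CpG, against the median of 7. The share over all windows was not matched for CpG content or for several windows per gene, so that these shares do not show an excess of the motif. A match is a description of the sequence and not a measured binding site.

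Levels were compared between genes as CPM per kilobase of merged exons, since longer transcripts collect more reads. Grb10, an adaptor protein that restrains signaling of the insulin and IGF1 receptors, had the highest level with 19.04 CPM per kb, higher than 82.8% of the 14598 genes tested. Plagl1, a zinc finger transcription factor also called Zac1, followed with 14.8 CPM per kb (78.1%) and Ndn, necdin, a regulator of cell cycle exit, with 12.1 CPM per kb (74.0%). The fetal growth factor Igf2 had 7.83 CPM per kb (63.9%). These 4 genes lay above the median of tested genes, 4.57 CPM per kb. Mest, a hydrolase-like protein of the endoplasmic reticulum studied in adipose tissue, had 2.11 CPM per kb (32.2%) and Peg3, a large zinc finger protein, 1.58 CPM per kb (27.2%).

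The other 4 genes were below 1 CPM on average. H19, a long noncoding RNA, had 0.362 CPM per kb. The remaining 3 were near the limit of detection: Zim1, a zinc finger gene beside Peg3, had 0.0396 CPM per kb, Meg3, a long noncoding RNA, 0.0153, and Dlk1, a transmembrane protein known as preadipocyte factor 1, 0.00377. In all, 6 of the 10 genes had a mean of at least 1 CPM. They were 5 of the 6 paternally expressed genes, Dlk1 being the exception, and 1 of the 4 maternally expressed genes, Grb10. For comparison, a mean of at least 1 CPM was reached by 13426 of all 52636 genes. The split between the parental groups was not tested. It rests on 10 genes chosen by symbol, and other imprinted genes were not sorted by expressed allele. It therefore does not show that paternally expressed genes are favored in MSPCs.

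The order held within libraries only in part. Grb10 was above Plagl1 in 8 of 8 libraries although their ranges overlapped (17.3 to 23.4 against 11.6 to 18.1 CPM per kb), whereas Plagl1 was above Ndn in 5 of 8. Ndn was above Igf2 in 8 of 8. Igf2 (4.99 to 13.1) and Mest (1.204 to 3.57) did not overlap in CPM per kb, and neither did Peg3 (1.33 to 1.86) and H19 (0 to 0.994). Mest was above Peg3 in 5 of 8 libraries, so that these neighbors do not differ beyond their spread, and Zim1 was above Meg3 in 4 of 8. With the length of the longest transcript in place of merged exons the genes had the same order, with Grb10 at 34.2 and Plagl1 at 21.9 CPM per kb.

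**Figure D1:**
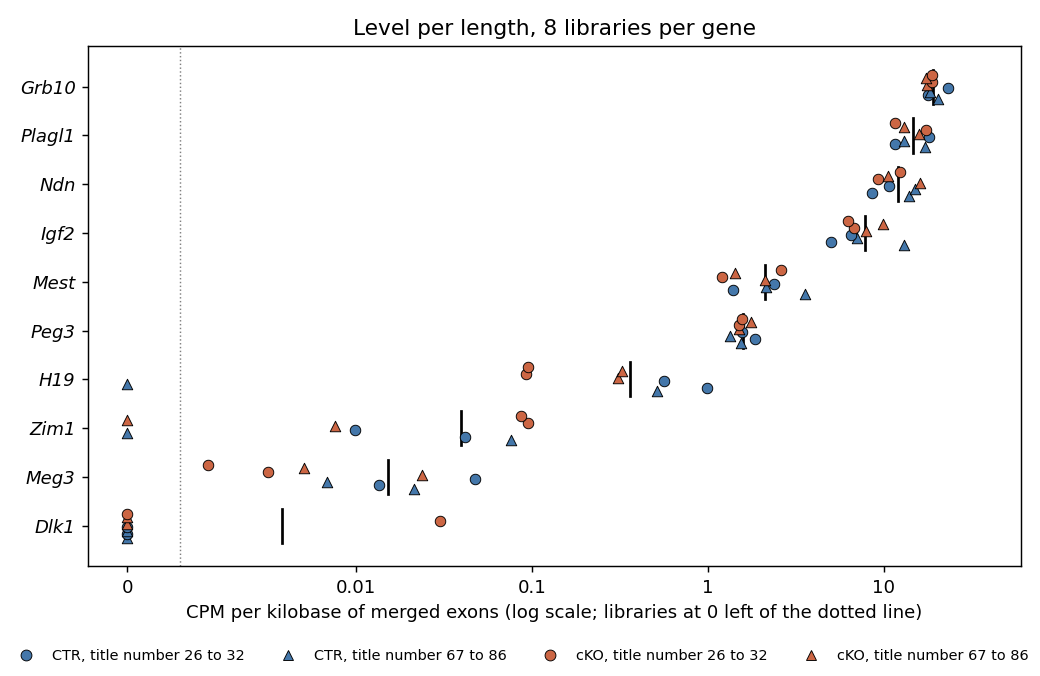
Level of each gene in CPM per kilobase of merged exons (horizontal axis, log scale, with libraries at 0 placed left of the dotted line). Each point is a library, with color for genotype and shape for the title number set, and the black line is the mean of 8 libraries; means run from 19.04 for Grb10 to 0.00377 for Dlk1, and the ranges of Peg3 and H19 do not overlap.

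No change between genotypes passed the test in any of the 10 genes. With edgeR's quasi-likelihood test and Benjamini-Hochberg adjustment, 0 of the 7 genes that had a count in every library passed an adjusted p of 0.05, and 0 had an unadjusted p under 0.05. The background in this comparison was 0% of 14598 genes at the adjusted threshold and 4.43% (646 genes) at an unadjusted p under 0.05. The CPM values of the CTR and cKO libraries overlapped for all 10 genes, where 2.61% of tested genes did not overlap. Log2 fold changes (cKO minus CTR) ran from -1.44 to 0.01, 2 of them positive and 5 negative, with a median of -0.05 against -0.0013 over all genes tested. The smallest p that an exact permutation test of 4 against 4 libraries can give is 0.0286.

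**Figure D2:**
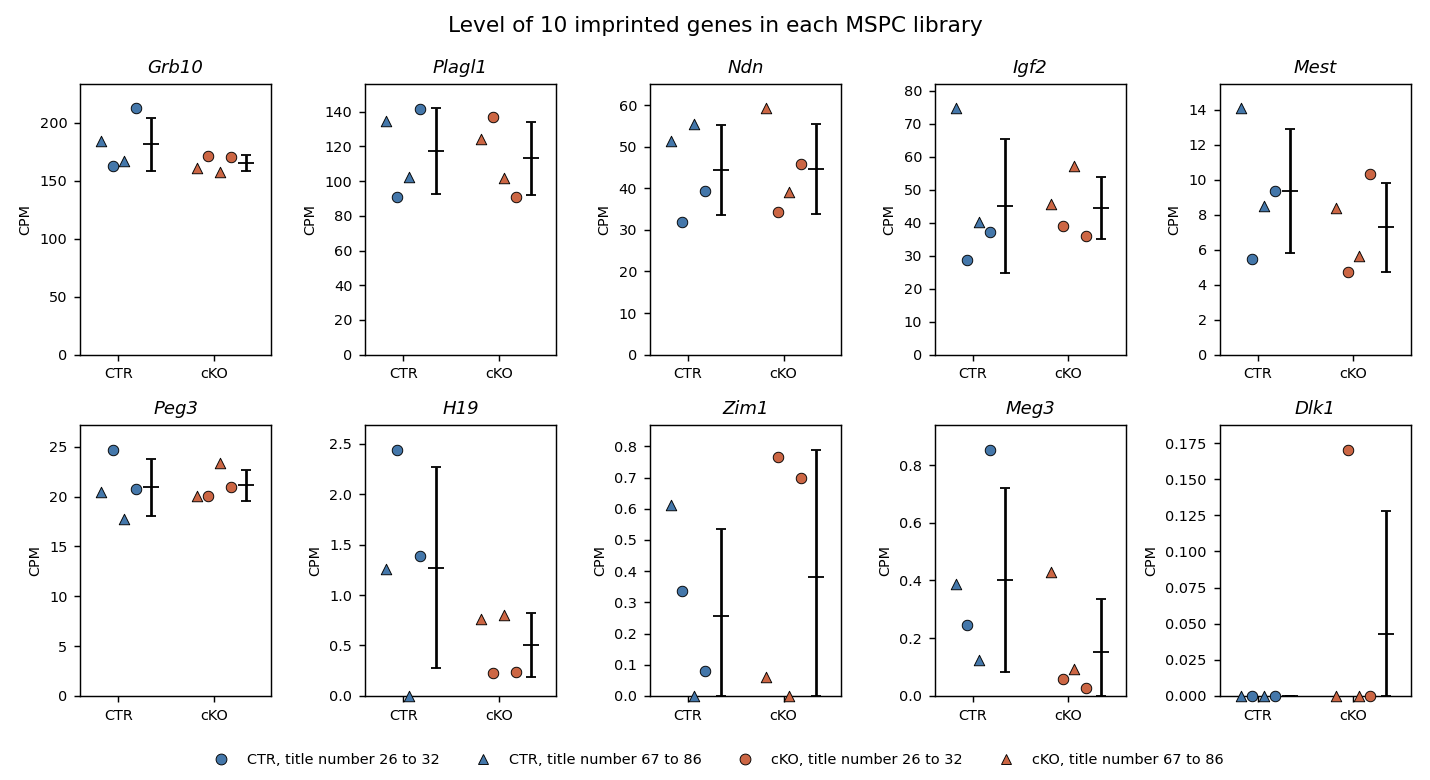
CPM of each gene in the 4 CTR and 4 cKO libraries, 1 panel per gene with its own scale from 0. Points are libraries (circles for title numbers 26 to 32, triangles for 67 to 86) and bars are the mean and SD, with the lower end stopped at 0; the genotypes overlap in every panel, and Dlk1 is above 0 in cKO2 alone.

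Grb10 had 184, 162, 167 and 212 CPM in CTR1 to CTR4 and 161, 171, 157 and 171 CPM in cKO1 to cKO4. CTR libraries averaged 181 ± 22.8 CPM and cKO libraries 165 ± 6.96 CPM (SD, n = 4 each), and the cKO values lay inside or just below the CTR range. The log2 fold change was -0.14 with a standard error of 0.10 (edgeR adjusted p = 0.999; exact permutation test on log2 CPM, two-sided, p = 0.229). Its limma-voom 95% interval, -0.36 to 0.10, corresponds to a change of -22.2% to 7.12%. Grb10 gave 5125 to 7955 counts per library and had, with Peg3, the least variation among the 10 genes, with a coefficient of variation of 10.3% against a median of 20.6% over tested genes.

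Plagl1 had 135, 90.8, 103 and 141 CPM in CTR1 to CTR4. In cKO1 to cKO4 it had 124, 137, 102 and 90.7 CPM. Each genotype thus held high and low libraries, with means of 117 ± 24.6 and 113 ± 21.01 CPM (SD, n = 4 each) and a log2 fold change of -0.05 (standard error 0.17). Ndn had 51.3, 31.8, 55.4 and 39.4 CPM in CTR1 to CTR4 and 59.2, 34.2, 39.2 and 45.8 CPM in cKO1 to cKO4. Its means of 44.5 ± 10.8 and 44.6 ± 10.8 CPM (SD, n = 4 each) were the closest of the genes above 1 CPM. The limma-voom 95% intervals of the log2 difference were -0.44 to 0.34 for Plagl1 and -0.46 to 0.48 for Ndn.

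Igf2, which signals through the IGF1 and insulin receptors, had 74.7, 28.6, 40.1 and 37.3 CPM in CTR1 to CTR4 and 45.6, 39.0, 57.1 and 36.0 CPM in cKO1 to cKO4. CTR1 was the highest of all 8 libraries and CTR2 the lowest, so that the cKO range lay inside the CTR range. The log2 fold change was -0.02 with a standard error of 0.28 by edgeR and 0.05 as the difference of mean log2 CPM (exact permutation p = 0.914), so that it has no direction. Without CTR1 the fold change was 0.33. In GENCODE M21 the exons of Igf2 share 3596 bases with Gm49394, a gene on the same strand that has no row in the deposited counts.

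Mest had 14.1, 5.47, 8.49 and 9.37 CPM in CTR1 to CTR4 and 8.37, 4.75, 5.65 and 10.3 CPM in cKO1 to cKO4. The highest value was again in CTR1, and both genotypes reached down to about 5 CPM. Its log2 fold change was -0.36 with a standard error of 0.35, and -0.10 without CTR1 (limma-voom 95% interval with all libraries -1.10 to 0.42). Mest shares 912 exon bases with Copg2 on the opposite strand. Whether reads were counted by strand, and how reads of the shared stretch were assigned, is not given in the sources used here. The effect of this overlap on the Mest counts is therefore not known. Copg2 had 690 to 1285 counts against 167 to 436 for Mest. Peg3 had 20.5, 24.7, 17.8 and 20.7 CPM in CTR1 to CTR4 and 20.05, 20.05, 23.4 and 20.99 CPM in cKO1 to cKO4. The log2 fold change of Peg3 was 0.01 with a standard error of 0.15, and its coefficient of variation was 10.2%.

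Meg3 had the largest fold change of the 7 tested genes, on few counts. It gave 12, 8, 4 and 32 counts in CTR1 to CTR4 and 14, 2, 3 and 1 in cKO1 to cKO4. In cKO, 3 libraries were thus at or under the limit of 3 counts, while cKO1 lay above CTR1, CTR2 and CTR3. The log2 fold change was -1.44 with a standard error of 0.79 (edgeR unadjusted p = 0.0994, adjusted p = 0.999). It was -2.76 without cKO1 and -0.76 without CTR4. The difference of mean log2 CPM was -1.24 (exact permutation p = 0.171), and it was -2.41 within the title numbers 26 to 32 and -0.08 within 67 to 86.

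H19, Zim1 and Dlk1 lacked counts in at least 1 library and were fitted without the filter. H19 had 39, 80, 0 and 52 counts in CTR1 to CTR4 and 25, 8, 26 and 9 in cKO1 to cKO4. The 3 CTR libraries with H19 counts were above all cKO libraries and the fourth was below them. In CPM these were 1.26, 2.45, 0 and 1.39 in CTR1 to CTR4 and 0.764, 0.227, 0.798 and 0.233 in cKO1 to cKO4. The log2 fold change of H19 was -1.33 with a standard error of 1.14 (edgeR without the filter, adjusted p = 0.847). As the difference of mean log2 CPM it was -0.56 (exact permutation p = 0.714), -2.72 within the title numbers 26 to 32 and 1.59 within 67 to 86, where CTR3 is at 0. The variance of H19 counts was 23.6 times their mean, where counting error alone gives a ratio near 1. Rgs5 and Myh11, markers of pericytes and smooth muscle, were also highest in CTR2 (22.5 and 13.8 CPM) and CTR4 (28.6 and 18.8 CPM) and reached at most 14.6 and 12.2 CPM in the other libraries. The summed level of the 6 markers of these cells was 340 to 405 CPM in CTR and 363 to 403 CPM in cKO, with 5 of 6 above 1 CPM and none at 0. The others of the list had another order: Notch3, which makes up most of the sum, was highest in cKO2 (377 CPM, against 336 in CTR2 and 340 in CTR4), Tagln in cKO4 (11.9 CPM), Acta2 was lower in CTR2 (2.75 CPM) than in CTR1 (4.97 CPM), and Cnn1 was above 0 in cKO2 alone. Their part in the H19 values was not tested.

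Zim1 had 19, 11, 0 and 3 counts in CTR1 to CTR4 and 2, 27, 0 and 27 in cKO1 to cKO4. Both genotypes held libraries at 0 and libraries above 10 counts, and the log2 fold change was 0.58 with a standard error of 1.54. Dlk1 had 6 counts in cKO2 and 0 in the other 7 libraries. A count of 0 allows up to 0.0966 CPM, and the 6 counts of cKO2 correspond to 0.171 CPM, so that Dlk1 was not detectable at this depth in 7 of 8 libraries and no fold change is given.

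**Figure D3:**
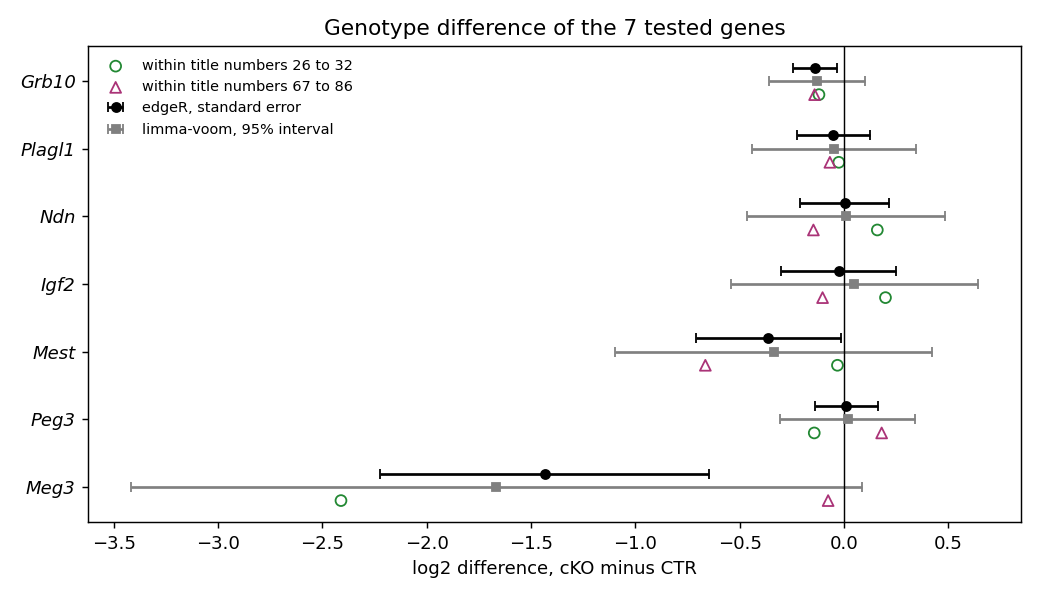
Genotype difference (cKO minus CTR, log2 scale) of the 7 genes with a count in every library, from edgeR with its standard error (black), from limma-voom with its 95% interval (grey), and as differences of mean log2 CPM within each title number set (open symbols). The 7 intervals include 0, and the widest is that of Meg3, from -3.42 to 0.09.

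The pairs of neighboring genes with opposite parental expression were set side by side within each library. Igf2 and H19 share enhancers and lie on chromosome 7, with Igf2 at chr7:142650766-142666816 and H19 at chr7:142575529-142578143 (GRCm38, both on the minus strand). Per kilobase Igf2 exceeded H19 in 8 of 8 libraries, by 25.5, 5.02 and 11.5 times in CTR1, CTR2 and CTR4, at least 187 times in CTR3 against the limit of 3 counts for H19, and 25.7, 73.7, 30.8 and 66.2 times in cKO1 to cKO4. The smallest ratio was in CTR2, which had the lowest Igf2 and the highest H19 of the 8 libraries.

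Peg3 (chr7:6703892-6730431, minus strand) and its neighbor Zim1 (chr7:6671269-6696450, minus strand) showed a similar order. Per kilobase Peg3 exceeded Zim1 by 15.8 to 44.6 times in the 4 libraries with more than 3 Zim1 counts, and by more in the others. In the Dlk1 (chr12:109452823-109463336, plus strand) and Meg3 (chr12:109541001-109571726, plus strand) cluster both partners were near 0. Of the other genes of that cluster, Rtl1 and Mirg had 0 counts in every library, Rian had 0 to 10, Dio3 0 to 79 and Begain 0 to 70.

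**Figure D4:**
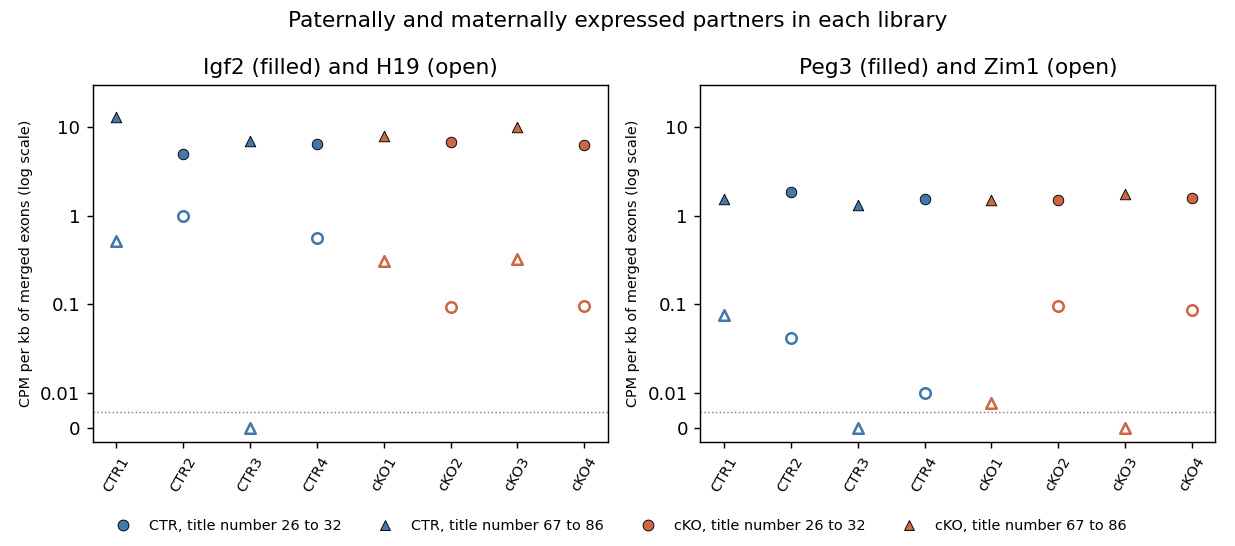
CPM per kilobase (log scale, libraries at 0 placed below the dotted line) of the paternally expressed partner (filled) and the maternally expressed partner (open) in each library. Igf2 lies above H19 and Peg3 above Zim1 in all 8 libraries, with the smallest Igf2 to H19 ratio, 5.02, in CTR2.

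The same genes were compared between the title number sets, each of which holds 2 libraries of each genotype. With the genotype as a term, edgeR called 0 of the 7 genes at an adjusted p of 0.05, where 0.0137% of all tested genes passed (2 genes). At an unadjusted p under 0.05 there were 2 of 7, Igf2 and Ndn, against 11.6% of all genes. Igf2 was the 1 gene of the 10 whose values did not overlap between the sets, against 7.69% of tested genes.

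Igf2 had 28.6, 37.3, 39.0 and 36.0 CPM in CTR2, CTR4, cKO2 and cKO4 and 74.7, 40.1, 45.6 and 57.1 CPM in CTR1, CTR3, cKO1 and cKO3. The means were 35.2 ± 4.59 and 54.4 ± 15.3 CPM (SD, n = 4 each). The log2 difference (67 to 86 minus 26 to 32) was 0.63 with a standard error of 0.20 (edgeR unadjusted p = 0.0131, adjusted p = 0.304; exact permutation p = 0.0286, the smallest the design allows). Ndn differed by 0.44 with a standard error of 0.17 (unadjusted p = 0.0278, adjusted p = 0.370), with means of 37.8 ± 6.18 and 51.3 ± 8.69 CPM (SD, n = 4 each) and overlapping values.

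Igf1, the growth factor related to Igf2, went the other way between these sets. It had 877, 736, 605 and 825 CPM in CTR2, CTR4, cKO2 and cKO4 and 481, 587, 517 and 375 CPM in CTR1, CTR3, cKO1 and cKO3. The 4 libraries of the second set were all below the first, where 7.69% of tested genes did not overlap between the sets. The log2 difference was -0.64 (edgeR unadjusted p = 0.0016, adjusted p = 0.192). DESeq2's Wald test gave an adjusted p of 0.0059, and it called 380 genes between the sets where edgeR called 2. Igf1 was named here after its values were seen. The summed level of 6 osteoblast markers, most of it Ibsp, also did not overlap, at 10883 to 14011 CPM for 26 to 32 and 7972 to 10625 CPM for 67 to 86, and its part in these differences was not tested. Sp7 and Phex did not follow Ibsp: Sp7 was at 51.9 to 70.1 CPM for 26 to 32 and 49.2 to 101 CPM for 67 to 86, and Phex at 89.5 to 175 and 120 to 181 CPM. Dmp1 leaned the same way as Ibsp but overlapped, at 5.16 to 14.9 and 4.51 to 7.27 CPM. Bglap and Bglap2 also overlapped and reached at most 3.96 and 1.99 CPM. For the interaction of genotype and title number set, 0 of 7 genes passed an adjusted p of 0.05, as did 0% of all genes. Meg3 had an unadjusted p of 0.0273 (edgeR adjusted p = 1.000), where 3.44% of all genes were under 0.05.

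**Figure D5:**
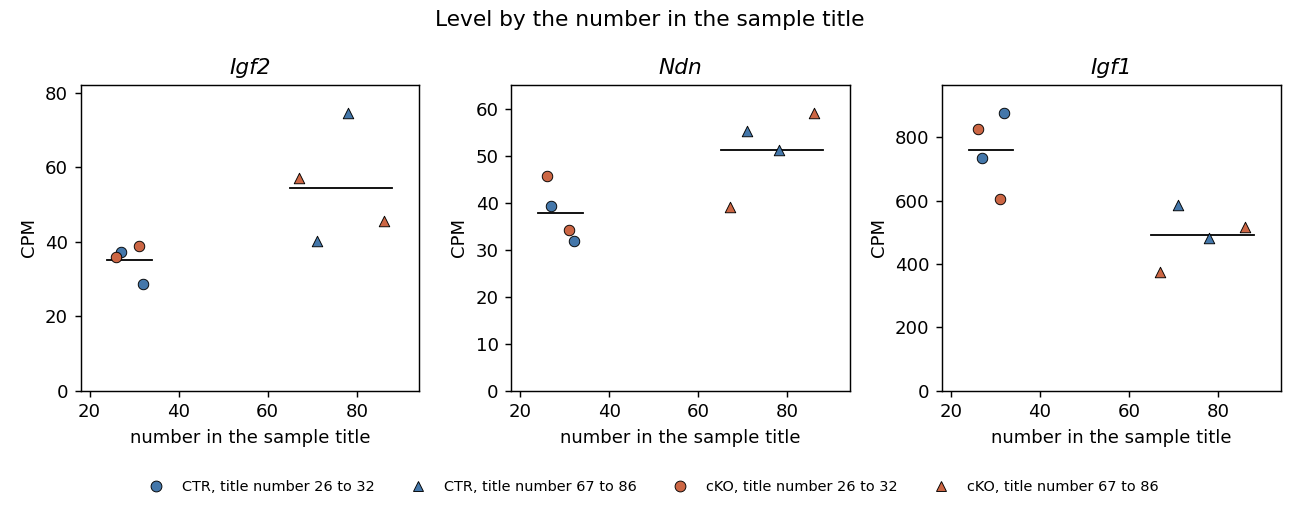
CPM of Igf2, Ndn and Igf1 in each library against the number in the sample title, with black lines for the mean of each set of 4. Igf2 means are 35.2 and 54.4 CPM and its sets do not overlap, Ndn values overlap, and Igf1 is lower in all libraries of the higher numbers.

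The covariation of the 6 genes above 1 CPM was examined across the 8 libraries. None of the 15 pairs passed an adjusted p of 0.05, 9 correlations being positive and 6 negative (lowest adjusted permutation p = 0.385). Mest and Ndn had Pearson's r = 0.68 (exact permutation p = 0.0658) and Spearman's rho = 0.60 (exact permutation p = 0.132). Peg3 and Ndn had r = -0.68 (exact permutation p = 0.0607) and rho = -0.57 (exact permutation p = 0.151). Grb10 and Plagl1 had r = 0.62 (exact permutation p = 0.0770) and rho = 0.62 (exact permutation p = 0.115). Without the 2 libraries farthest from the median of the first gene, r was 0.59 for Mest and Ndn, -0.29 for Peg3 and Ndn and 0.14 for Grb10 and Plagl1. On residuals after genotype and title number set, r was 0.77, -0.69 and 0.76 in the same order. Of the 15 pairs, 10 were positive and 5 negative on residuals, which were not tested.

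The neighbors of the 10 genes in their imprinted clusters gave no call between genotypes either. Of 28 such genes with a row, 12 had a count in every library and 8 had 0 counts in all, and 0 of the 12 passed an adjusted p of 0.05 or an unadjusted p under 0.05 by edgeR. Their median log2 fold change was 0.14. Cdkn1c, which encodes the cell cycle inhibitor p57 and lies in the cluster next to Igf2 and H19, had the highest level with 61.1 CPM per kb, followed by Phactr2, a neighbor of Plagl1, with 11.4 and Copg2, a coat protein subunit, with 5.55. Cdkn1c had 116, 90.8, 111 and 141 CPM in CTR1 to CTR4 and 155, 101, 156 and 126 CPM in cKO1 to cKO4, which overlapped (log2 fold change 0.23, standard error 0.17). The largest positive value was that of Mkrn3, a ubiquitin ligase gene near Ndn, with 1.00 on the log2 scale and a standard error of 0.55, on 17 to 151 counts. The largest negative value was that of Cobl, an actin nucleator near Grb10, with -0.34 and a standard error of 0.48.

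Of 29 other imprinted genes with a row, 21 were tested and 0 passed an adjusted p of 0.05. At an unadjusted p under 0.05 there was 1 of the 21, where 4.43% of all tested genes were. That gene was Dcn, decorin, a matrix proteoglycan whose imprinting is known from the placenta, with 369, 429, 309 and 404 CPM in CTR1 to CTR4 and 260, 328, 241 and 363 CPM in cKO1 to cKO4. Its log2 fold change of -0.34 had a standard error of 0.15 (edgeR unadjusted p = 0.0481, adjusted p = 0.999), and the values overlapped over all libraries. Within each title number set the 2 cKO values were below the 2 CTR values. The differences of mean log2 CPM were -0.27 for 26 to 32 and -0.43 for 67 to 86. The share of all genes with such an order within both sets was not counted. Dcn was also lower for 67 to 86 than for 26 to 32, with a log2 difference of -0.38 (edgeR unadjusted p = 0.0025, adjusted p = 0.204). DESeq2's Wald test, which called 380 genes between these sets, gave an adjusted p of 0.0283. The highest levels were those of Gnas, the stimulatory G protein subunit, with 67.8 CPM per kb, Dcn with 57.9 and Blcap with 26.7. Slc22a2, an organic cation transporter, had the largest positive log2 fold change, 0.79 with a standard error of 0.64. The median of the 21 genes was -0.0037.

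Of 8 partners of IGF signaling, 7 were tested and 0 passed an adjusted p of 0.05 or an unadjusted p under 0.05 by edgeR, with a median log2 fold change of 0.19. Igf1 had 63.2 CPM per kb, 8.07 times the level of Igf2 on the same scale. The ratio of the means was 12.5 for the title numbers 26 to 32 and 5.21 for 67 to 86. The insulin receptor substrates Irs1 and Irs2 had 17.4 and 7.14 CPM per kb. Irs2 had the largest negative log2 fold change, -0.44 with a standard error of 0.26. The largest positive one was that of Igf2bp2, an RNA-binding protein that binds Igf2 mRNA, 0.54 with a standard error of 0.29. The paper reports increased Igf2bp2 expression in cKO MSPCs, from DESeq2's likelihood ratio test corrected for a batch it does not name. Here that test was run with the title number group, which may not be the batch the paper used. It called 0 of the 7 partners, Igf2bp2 included (lowest adjusted p = 0.717), and 47 of all 14598 genes tested. The paper's own fit was not repeated. Igf1r and Insr, the receptors, had 33.6 and 38.9 CPM on average, with log2 fold changes of 0.25 and 0.19.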

How the data were processed

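The 8 libraries hold poly-A RNA of sorted MSPCs, 4 per genotype. As the methods describe it, the authors trimmed paired reads, aligned them to GRCm38 (mm10) with HISAT2 and counted them with HTSeq-count, and the deposited values are raw counts per gene without normalization. Rows were matched by Ensembl identifier without its version to GENCODE M21 (GRCm38), a release other than the one the methods name, which also gave positions and exon lengths; 52489 of 52636 rows matched. The labels name the samples biological replicates, and the methods give an age range for mice that does not include the labelled 6 weeks.

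CPM used TMM-scaled library sizes. The test of genes without a 0 in any library was edgeR 4.0.16 (glmQLFit and glmQLFTest, Benjamini-Hochberg, threshold 0.05) in R 4.3.3 without covariates; log2 CPM used a prior count of 2. Alternatives were other scalings and filters, DESeq2 1.42.0, limma-voom (limma 3.58.1), a batch term, a replicate block and each library left out. Within replicate numbers, deviations from the genotype means correlated at 0.131, 0.176, 0.0844 and 0.0572. On simulated data for this comparison edgeR recovered 52% of 200 genes changed by 1 on the log2 scale, with 3 false calls, among 14274 genes, and 78.5% at a change of 2, with 5 false calls among 14296. With 3 counts as the limit, precision is set by total counts of 31047344 to 38216877.

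The 10 genes, the lists of cluster neighbors, other imprinted genes and growth signal partners, and the marker lists were chosen with earlier results of these data known. From the lists, the text names genes past the threshold, the 3 highest per kilobase and the largest rise and fall of each; Rgs5, Myh11, Dcn as the 1 gene under an unadjusted 0.05, Igf1 between title numbers, Igf1r, Insr, Kcnq1ot1, S100b, the other marker genes with values and the Dlk1 and Meg3 neighbors were named after their values were seen. Lists were described by counts and medians without a set test.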

Additional observations from a re-analysis of the deposited data

Results flagged for a closer look

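Of 19 sets of 4 libraries of 1 genotype and 1 gene that were tested for a library far from the others by Dixon's gap test at its 95% critical value, 2 had one, where chance gives about 1 in 20. Meg3 in cKO1, with 0.428 CPM, had a gap of 0.836 of the range of the 4 cKO libraries, the other 3 of which had 0.057, 0.092 and 0.026 CPM. Dlk1 in cKO2, with 0.171 CPM from 6 counts, had a gap of 1 because the 3 other cKO libraries were at 0. Both rest on few counts, 14 for Meg3 and 6 for Dlk1, and the cause was not tested.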

How the results depend on the processing

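No member was called between genotypes, between title number sets or for their interaction under any alternative run, and neither was a gene of the other 3 lists between genotypes. Genes called between genotypes, 0 by edgeR, were 1 with filterByExpr, without a filter and with a mean of at least 1 CPM, 23 and 22 by DESeq2's Wald and likelihood ratio tests, and 47 by the latter with the title number group. Without a filter, a pairing of choices added after the data were seen, these 3 gave 47, 38 and 55, and limma-voom 14 against 0 with it. Genes called between title number sets, 2 by edgeR, were 1 with DESeq2 size factors, 4 without a filter, 380 by DESeq2's Wald test, 0 without the genotype term, and 0 to 4 with each library left out, falling to 0 without CTR1, CTR2 or cKO4. Whether the replicate numbers pair the libraries was not settled. The 4 correlations were positive and low, at 0.0572 to 0.176, and were not compared with those of libraries of unlike number. Each replicate number also lies within 1 title number set, so that pair and set cannot be told apart. With the replicate block 0 members and 0 genes were called (812 genes at an unadjusted p under 0.05 by edgeR). The Igf2 fold change turned positive with that block (0.0496), limma-voom (0.0499), the title number group in edgeR (0.0122) and in DESeq2 (0.0106) and within 26 to 32 (0.20), and ran from -0.20 to 0.33 with each library left out. That of Ndn was -8.9e-05 with filterByExpr, -0.000103 with a mean of at least 1 CPM, -0.15 within 67 to 86 and -0.17 to 0.12 with each library left out. Peg3 was at -0.14 within 26 to 32 and -0.063 to 0.096 with each library left out, Plagl1 at -0.16 to 0.046. H19 was at 1.59 within 67 to 86 and, with each library left out, -1.74 to -0.81. Zim1 was at -0.51 with the title number group in edgeR, -0.59 in DESeq2 and -1.24 within 67 to 86, and -0.0033 to 1.45 with each library left out. Grb10, Mest and Meg3 kept a negative sign in all alternatives run. The causes were not tested. Depth limits H19, Zim1, Meg3 and Dlk1, with at most 80, 27, 32 and 6 counts per library.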

Other observations

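Kcnq1ot1, the noncoding RNA of the cluster that holds Cdkn1c, had 11.6, 19.9, 18.2 and 21.9 CPM in CTR1 to CTR4 and 20.8, 28.6, 20.3 and 24.8 CPM in cKO1 to cKO4, with a log2 fold change of 0.40 (standard error 0.22, edgeR unadjusted p = 0.0914, adjusted p = 0.999). Between title number sets it was lower for 67 to 86 by edgeR at an unadjusted p of 0.0329 (adjusted p = 0.386), and Cobl had the largest difference of the cluster neighbors at -1.24 (edgeR unadjusted p = 0.0028, adjusted p = 0.208; DESeq2's Wald test, adjusted p = 0.0040). S100b, which makes up most of the summed level of 6 Schwann cell markers, was 38.6 to 42.0 CPM in CTR and 47.2 to 49.6 CPM in cKO without overlap, while 1 of the 6 markers was at 0 in all libraries.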
